A study of Caenorhabditis elegans with 9 samples.

Results

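The genes described here build and serve the sensory cilium of Caenorhabditis elegans: 41 genes for intraflagellar transport, its motors, the BBSome, the transition zone at the base of the cilium, and a few linked regulators and structural proteins. They were chosen by name, and each was read by its brightest probe set among those that the array platform assigns to that gene symbol alone. All 41 were found, among 17118 genes read in the same way, and they were carried by 53 probe sets. Their transcripts were measured in whole first-stage larvae (L1) that hatched into sterile buffer without food and were harvested 48 h after the embryos had been isolated by bleaching. The 3 strains had 3 arrays each, labelled as biological replicates. They were the wild type (labelled N2), ogt-1(ok430), which has lost the transferase that attaches O-GlcNAc to intracellular proteins, and oga-1(ok1207), which has lost the O-GlcNAcase that removes it. Starvation, stage and culture in buffer were common to all groups, so no fed larvae enter any comparison. Each mutant is a single strain with 1 deletion allele, and its outcrossing was not described in the labels.

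Cilia in C. elegans are found only on sensory neurons, where they carry the receptors and channels for smell, taste, touch and temperature. Intraflagellar transport moves cargo along the ciliary microtubules. Kinesin-2 motors drive it outward, a dedicated dynein brings it back, and the IFT-A and IFT-B complexes and the BBSome link motors and cargo. The transition zone gates entry to the cilium. Many of these genes are switched on in ciliated neurons by DAF-19, a transcription factor of the RFX family that binds the X-box in their promoters. Several member names record the mutant defects by which the genes were found, in avoidance of high osmolarity (osm), chemotaxis (che), dye filling (dyf) or dauer formation (daf). In whole larvae a lower value can come from fewer cells of a type or from less RNA per cell, and these cannot be told apart.

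In the main test, which took replicates as unpaired, none of the 41 ciliary genes passed in either mutant. The gene klp-11 passed in oga-1 when same-numbered arrays were paired, and also in some unpaired alternatives. These were quantile normalisation (limma adjusted p = 0.0388), a variance trend with robust fitting (limma adjusted p = 0.0497) and leaving out ogt-1 replicate 3. In 14 of 19 alternatives klp-11 did not pass, among them the average of its probe sets (-0.41, limma adjusted p = 0.17). Quantile normalisation also called osm-3 in ogt-1 (limma adjusted p = 0.0388). The main test was limma's moderated test on the deposited log2 values of all 9 arrays, with p adjusted by Benjamini-Hochberg over 22548 probe sets and called under 0.05. Between ogt-1 and wild type 0 of 41 members were called, where 3.91% of all probe sets (882) and 4.32% of genes were, and the members' smallest adjusted p was 0.081. For oga-1 with wild type 0 of 41 were called against 1.93% of all probe sets (436) and 2.11% of genes, with a smallest adjusted p of 0.054. The wild type and oga-1 arrays of the same number deviated together. With replicate number as a block over all 9 arrays 1 of 41 was called, klp-11 (limma adjusted p = 0.044), where 3.32% of all probe sets were (749). In a blocked fit of wild type and oga-1 alone it was again klp-11 (limma adjusted p = 0.0131), where 5.84% of all probe sets were called (1316). Between the mutants 0 of 41 were called against 0.514% of all probe sets (116) and 0.532% of genes, with a smallest adjusted p of 0.891. At an unadjusted p under 0.05 the limma fit had 1 member between ogt-1 and wild type, lower in ogt-1, where 17.6% of all genes had such a p and 9.04% had it and were lower. It had 6 members between oga-1 and wild type, 5 of them lower (14.9% of genes, 8.1% lower). Between the mutants it had 2, both lower in oga-1 (5.36% of genes, 2.41% lower).

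Most changes were small. For ogt-1 with wild type the members' log2 changes ran from -0.42 to 0.25 with a median of 0.052, beside a median of -0.001 over all genes, and 23 were above 0 (49.9% of all genes were). For oga-1 with wild type they ran from -0.60 to 0.25 with a median of 0.005, beside 0.008 over all genes, and 22 were above 0 (52.1% of genes). Between the mutants (oga-1 minus ogt-1) they ran from -0.33 to 0.20 with a median of -0.047, beside 0.005, and 14 were above 0 (51.5% of genes). The median size of a change, without its sign, was 0.110 in ogt-1 and 0.056 in oga-1, against 0.120 and 0.112 over all genes. Between the mutants it was 0.091, against 0.085. The comparisons with wild type share the same 3 wild type arrays, so their values for a gene are not independent of each other.

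**Figure D1:**
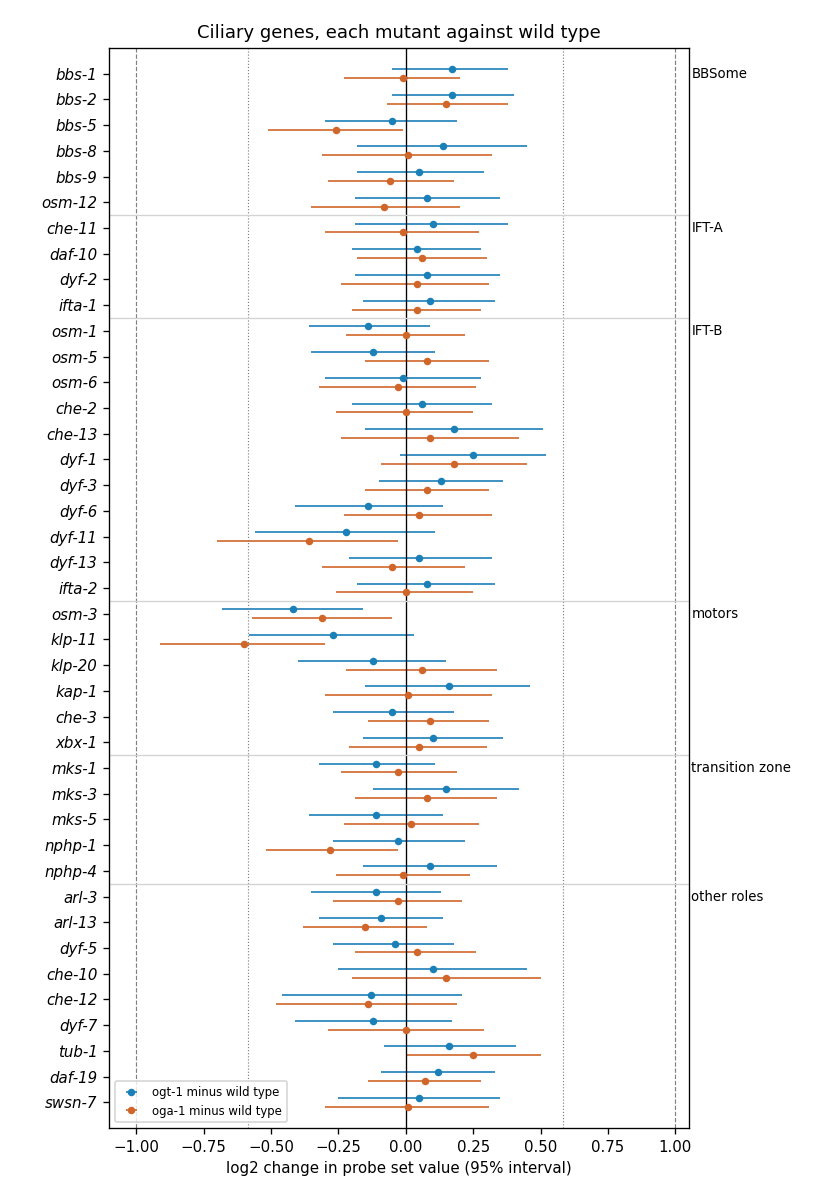
Log2 change in probe set value (horizontal axis) of the 41 ciliary genes (vertical axis, grouped by role) in ogt-1 (blue) and oga-1 (orange) against wild type, 3 arrays per strain. Points are limma estimates, bars their 95% intervals, dotted lines mark 1.5-fold and dashed lines 2-fold. All bars lie inside 2-fold, and only those of osm-3 in ogt-1 and of klp-11 and dyf-11 in oga-1 reach past 1.5-fold.

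The intervals set how large a change could have gone unseen in the array values. The 95% interval of each gene's change, not adjusted for the number of genes, lay inside 2-fold in either direction for 41 of 41 members in each of the 3 comparisons (96.4%, 96.9% and 98.1% of all genes). It lay inside 1.5-fold for 40 of 41 members in ogt-1 with wild type, where 79.3% of all genes did. The exception was osm-3, with an interval from -0.68 to -0.16. For oga-1 with wild type it lay inside 1.5-fold for 39 of 41 (81.4% of genes), the exceptions being klp-11 (-0.91 to -0.30) and dyf-11 (-0.70 to -0.03). Between the mutants it was 40 of 41 (89.9% of genes), klp-11 being the exception at -0.64 to -0.02. The median standard error of a member's change was 0.117. The smallest change called in any probe set was 0.37 in ogt-1 with wild type, 0.41 in oga-1 with wild type and 0.53 between the mutants.

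Array values cannot be read as amounts across genes, but a floor can be given. The array's 5 probe sets for yeast genes, taken as a measure of background after the values were seen, had strain means of 4.41 to 6.26. Of the members, 34 had means over 6.26 in each of the 3 strains. Those at or below it in all strains were bbs-2, bbs-9, che-13, dyf-13 and mks-1, and for these 5 a level above background was not shown. che-2 exceeded it in ogt-1 alone (6.31) and tub-1 in oga-1 alone (6.28). Replicates of the members were tight: the pooled standard deviation within strains had a median of 0.135, from 0.069 for daf-19 to 0.229 for che-10, beside a median of 0.153 over all genes.

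Among the motors, osm-3 and klp-11 came nearest to the threshold of all 41 members. OSM-3 is the homodimeric kinesin-2 that runs to the tip of the cilium. Its probe set read 8.56, 8.58 and 8.81 on the wild type arrays, 8.03, 8.31 and 8.36 in ogt-1, and 8.40, 8.26 and 8.37 in oga-1. All 6 mutant arrays lay below the 3 wild type arrays. The difference was -0.42 ± 0.12 (SE, n = 3 arrays per strain, 1.33-fold) in ogt-1, with a limma adjusted p of 0.081. In oga-1 it was -0.31 ± 0.12 (1.24-fold, limma adjusted p = 0.251). The mutants did not separate from each other (0.11, interval -0.15 to 0.37). On quantile-normalised values the difference in ogt-1 was -0.46 and passed (adjusted p = 0.0388), and over all alternatives its adjusted p ran from 0.0388 to 0.254.

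KLP-11 is a motor subunit of heterotrimeric kinesin-II, which works with OSM-3 along the middle part of the cilium. It had the largest difference of any member in oga-1. Its probe set read 10.055, 9.996 and 10.016 on the wild type arrays, 9.841, 9.912 and 9.492 in ogt-1, and 9.573, 9.147 and 9.537 in oga-1. The wild type arrays lay close together and above all 6 mutant arrays, while ogt-1 and oga-1 overlapped. The difference was -0.60 ± 0.14 (SE, n = 3, 1.52-fold) in oga-1 (limma adjusted p = 0.054) and -0.27 ± 0.14 in ogt-1 (limma adjusted p = 0.374). Between the mutants it was -0.33 ± 0.14, with an unadjusted limma p of 0.0378 and an adjusted p of 0.891. Without oga-1 replicate 2 it was -0.19, and without ogt-1 replicate 3 the ogt-1 difference from wild type was -0.15. The oga-1 difference from wild type stood at the edge of the threshold. It passed with the replicate block (adjusted p = 0.044, and 0.0131 in the blocked fit of these strains alone), on quantile-normalised values (adjusted p = 0.0388), with a variance trend and robust fitting (adjusted p = 0.0497) and without ogt-1 replicate 3 (adjusted p = 0.0472). Over all alternatives it kept its sign, from -0.68 to -0.41, with adjusted p from 0.0131 to 0.198. The highest of these came without wild type replicate 2 and oga-1 replicate 2, where the difference was -0.48.

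The gene klp-11 was also read by 3 dimmer probe sets, and they gave unequal differences. With all its probe sets averaged the oga-1 difference was -0.41 and did not pass (limma adjusted p = 0.17). The next brightest read 9.70, 9.66 and 9.67 on the wild type arrays, 9.26, 9.57 and 8.91 in ogt-1, and 9.13, 9.31 and 9.03 in oga-1. Here too every mutant array lay below every wild type array, by -0.43 ± 0.15 in ogt-1 (limma adjusted p = 0.153) and -0.52 ± 0.15 in oga-1 (limma adjusted p = 0.112). The remaining probe sets differed by -0.21 and -0.30 in oga-1 (adjusted p = 0.674 and 0.559) and by -0.02 and -0.22 in ogt-1 (adjusted p = 0.978 and 0.662), and in them the strains overlapped. The brightest klp-11 probe set is of a class (ending x_at) that can bind related transcripts, as are those of klp-20 and kap-1, and the other 3 are of a class (ending s_at) that can bind several transcripts.

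**Figure D2:**
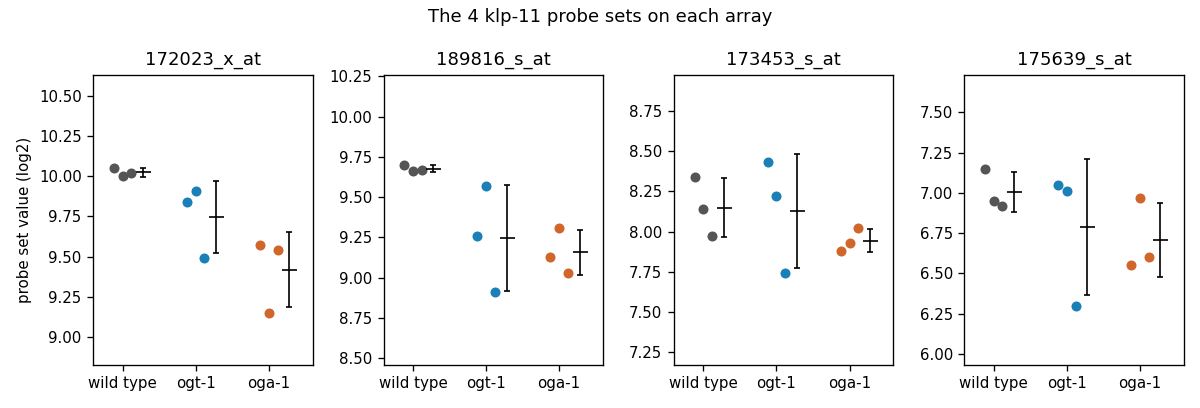
Values of the 4 klp-11 probe sets (log2, a panel each with its own range, from the brightest at the left) on the 3 arrays of wild type, ogt-1 and oga-1. Points are arrays, and the black mark beside them is the mean ± SD. In the brighter pair the wild type arrays lie above all mutant arrays, and in the dimmer pair the strains overlap.

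The other parts of the motors gave smaller differences. KLP-20, the partner of KLP-11 in kinesin-II, differed by -0.12 in ogt-1 and 0.06 in oga-1 (adjusted p = 0.736 and 0.913), and KAP-1, their accessory subunit, by 0.16 and 0.01. CHE-3, the heavy chain of the returning dynein, averaged 8.30, 8.26 and 8.39 over the wild type, ogt-1 and oga-1 arrays. XBX-1, its light intermediate chain, averaged 7.61, 7.71 and 7.66. Of the 6 motor genes 4 were below 0 in ogt-1 and 2 in oga-1.

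The IFT-A complex, needed for return transport, gave small differences, none of which passed. Its 4 members che-11, daf-10, dyf-2 and ifta-1 (homologues of IFT140, IFT122, IFT144 and IFT121) differed from wild type by 0.04 to 0.10 in ogt-1 and by -0.01 to 0.06 in oga-1. None had a limma adjusted p under 0.803 in either comparison. The values of che-11 were 7.20, 6.88 and 7.14 on the wild type arrays, 7.34, 7.12 and 7.05 in ogt-1, and 6.85, 7.20 and 7.13 in oga-1, and the strains overlapped fully. Its difference between the mutants was -0.11 (interval -0.40 to 0.18).

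The IFT-B complex, which serves outward transport, has 11 members in the list. Their differences ran from -0.22 to 0.25 in ogt-1 (6 above 0) and from -0.36 to 0.18 in oga-1 (5 above 0), with medians of 0.052 and -0.001. DYF-11, the IFT54 homologue, read 7.01, 6.97 and 7.37 on the wild type arrays, 7.05, 6.68 and 6.94 in ogt-1, and 6.71, 6.55 and 7.01 in oga-1. The highest oga-1 array (7.01) lay above wild type replicate 2 (6.97), so the strains overlapped, and wild type replicate 3 lay above the rest. It differed by -0.36 ± 0.15 in oga-1 (limma adjusted p = 0.309) and by -0.22 ± 0.15 in ogt-1 (limma adjusted p = 0.549). Without wild type replicate 3 these were -0.23 and -0.09.

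DYF-1, the IFT70 homologue, had the largest positive difference of the list in ogt-1. It read 6.58, 6.55 and 6.70 on the wild type arrays, 6.67, 6.89 and 7.02 in ogt-1, and 6.59, 6.86 and 6.92 in oga-1. In each mutant the lowest array fell within the wild type range. The differences were 0.25 ± 0.12 in ogt-1 (limma adjusted p = 0.346) and 0.18 ± 0.12 in oga-1 (limma adjusted p = 0.605). Core subunits showed less: osm-5, the IFT88 homologue, differed by -0.12 and 0.08, osm-6, the IFT52 homologue, by -0.01 and -0.03, and osm-1, the IFT172 homologue, by -0.14 and 0.00, in ogt-1 and oga-1. Of the rest, che-13 (IFT57), dyf-3 (CLUAP1), dyf-13 (IFT56), che-2 (IFT80), ifta-2 (RABL5) and dyf-6 (IFT46) lay between -0.14 (dyf-6) and 0.18 (che-13) in ogt-1 and between -0.05 (dyf-13) and 0.09 (che-13) in oga-1.

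The BBSome, a coat-like complex that carries membrane proteins, was represented by 6 subunits. They differed from wild type by -0.05 to 0.17 in ogt-1 (5 above 0) and by -0.26 to 0.15 in oga-1 (2 above 0). Between the mutants 6 of 6 were lower in oga-1, by -0.20 to -0.02 with a median of -0.143, and none passed (adjusted p = 1). Of all 41 members 27 were lower in oga-1 than in ogt-1, and of all genes 51.5% were higher. The sign for bbs-8 rests on ogt-1 replicate 1: it read 8.16, 7.68 and 7.76 in ogt-1 and 7.74, 7.55 and 7.91 in oga-1. The sign for bbs-2 (-0.02) turns without oga-1 replicate 2: it read 5.62, 5.52 and 5.55 in ogt-1 and 5.54, 5.41 and 5.68 in oga-1. Both bbs-2 and bbs-9 were at or below the yeast-control level in all strains. The subunit with the largest difference between the mutants was bbs-5. It read 8.59, 8.68 and 8.46 on the wild type arrays, 8.49, 8.47 and 8.61 in ogt-1, and 8.45, 8.13 and 8.38 in oga-1. The oga-1 arrays lay below all others, the highest of them just under the lowest wild type array. Against wild type this was -0.26 ± 0.11 (limma adjusted p = 0.327) and against ogt-1 -0.20 ± 0.11. Without oga-1 replicate 2 these were -0.17 and -0.11, and without wild type replicate 2 as well the difference from wild type was -0.11. The subunits bbs-1, bbs-8, bbs-9, osm-12 (BBS7) and bbs-2 differed from wild type by 0.17, 0.14, 0.05, 0.08 and 0.17 in ogt-1 and by -0.01, 0.01, -0.06, -0.08 and 0.15 in oga-1.

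In the transition zone the largest difference was in nphp-1, a gene of the nephrocystin module. It read 7.03, 6.99 and 6.93 on the wild type arrays, 6.92, 6.89 and 7.06 in ogt-1, and 6.80, 6.50 and 6.81 in oga-1. All 3 oga-1 arrays lay below the other 6. The difference was -0.28 ± 0.11 from wild type (limma adjusted p = 0.276) and -0.25 ± 0.11 from ogt-1 (limma adjusted p = 0.930), and without oga-1 replicate 2 these were -0.17 and -0.15. Its module partner nphp-4 averaged 7.53, 7.61 and 7.52 in the same order of strains. Of the Meckel syndrome homologues, mks-3 (meckelin) differed by 0.15 and 0.08 and mks-1 by -0.11 and -0.03 in ogt-1 and oga-1. The assembly factor mks-5 differed by -0.11 and 0.02.

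**Figure D3:**
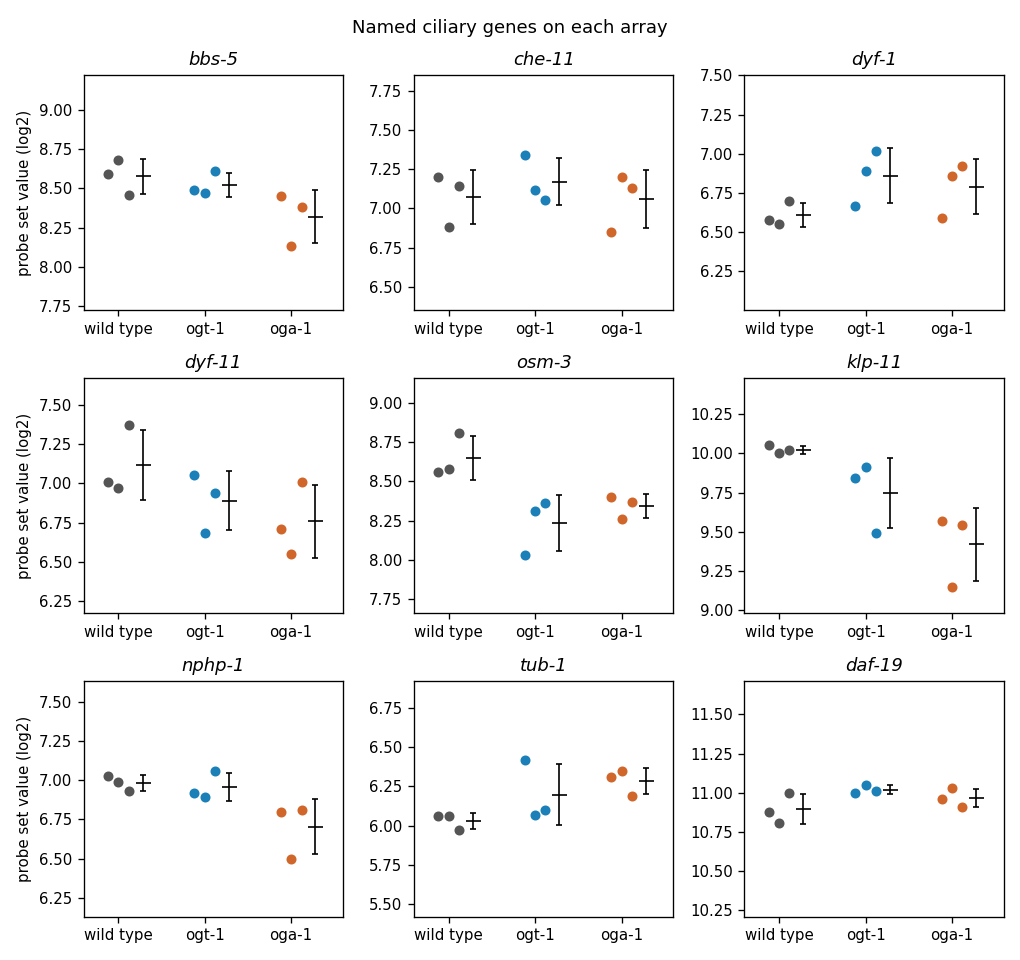
Probe set values (log2, vertical axes that each span 1.5 units) of 9 named ciliary genes on the 3 arrays of wild type, ogt-1 and oga-1. Points are arrays, and the black mark beside them is the mean ± SD. All mutant arrays lie below wild type for osm-3 and klp-11, the oga-1 arrays lie lowest for bbs-5 and nphp-1, and those of daf-19 span 0.24 in all.

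The regulator DAF-19 showed no difference that passed. Its probe set read 10.882, 10.809 and 11.004 on the wild type arrays, 10.998, 11.047 and 11.006 in ogt-1, and 10.958, 11.034 and 10.914 in oga-1. The 9 arrays spanned 0.24. The differences were 0.12 ± 0.10 in ogt-1 (interval -0.09 to 0.33, limma adjusted p = 0.631) and 0.07 ± 0.10 in oga-1 (interval -0.14 to 0.28, limma adjusted p = 0.850). A dimmer daf-19 probe set gave 0.17 (adjusted p = 0.499) and -0.01 (adjusted p = 0.991). The gene makes isoforms for ciliated and for other neurons, and which of them these probe sets bind was not stated in the labels.

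Of the remaining members, tub-1, the worm Tubby homologue, had the smallest unadjusted p. It read 6.06, 6.06 and 5.97 on the wild type arrays, 6.42, 6.07 and 6.10 in ogt-1, and 6.31, 6.35 and 6.19 in oga-1. All mutant arrays lay above wild type, in a range around the level of the yeast controls. The differences were 0.25 ± 0.11 in oga-1 (limma adjusted p = 0.353) and 0.16 ± 0.11 in ogt-1 (limma adjusted p = 0.553), and without ogt-1 replicate 1 the latter was 0.05. The small GTPases arl-3 and arl-13 differed from wild type by -0.11 and -0.09 in ogt-1 and by -0.03 and -0.15 in oga-1. The kinase dyf-5, which restrains cilium length, differed by -0.04 and 0.04. The rootletin homologue che-10 differed by 0.10 and 0.15. Its dimmer probe set went the other way, by -0.25 and -0.34 (limma adjusted p = 0.61 and 0.51), with all ogt-1 arrays below wild type. The gene che-12, for a microtubule-binding protein of cilia, differed by -0.13 and -0.14. The gene dyf-7, whose product anchors dendrite tips in the embryo, differed by -0.12 and 0.00. The member swsn-7 codes for a subunit of the SWI/SNF chromatin remodelling complex and is not known as a ciliary protein. It differed by 0.05 and 0.01.

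Strains whose arrays did not overlap at all were counted as well. For ogt-1 with wild type the arrays did not overlap for 4 of 41 members (9.76%), where 23.4% of all genes had no overlap. These were bbs-2 and tub-1, higher (as were 11.9% of genes), and osm-3 and klp-11, lower (11.5% of genes). For oga-1 with wild type it was 5 of 41 (12.2%), against 17.3% of genes, with tub-1 higher (8.54% of genes) and bbs-5, osm-3, klp-11 and nphp-1 lower (8.75% of genes). Between the mutants it was 5 of 41 (12.2%), against 9.95% of genes, with osm-5 and che-3 higher in oga-1 (4.82% of genes) and bbs-1, bbs-5 and nphp-1 lower (5.13% of genes).

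**Figure D4:**
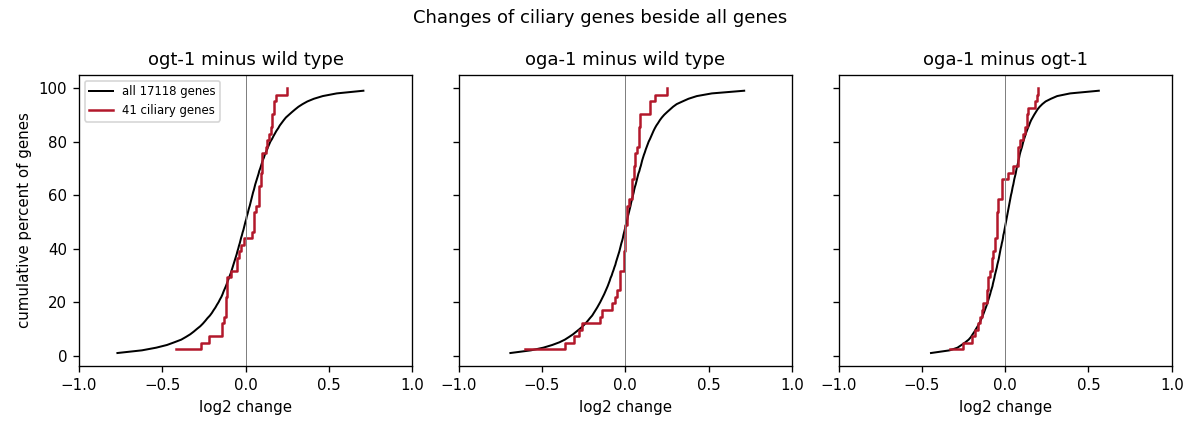
Cumulative percent of genes (vertical axis) by log2 change (horizontal axis) for the 41 ciliary genes (red steps) and for all 17118 genes (black, percentiles 1 to 99), in the 3 comparisons. The red steps end at -0.42 and 0.25 in ogt-1, at -0.60 and 0.25 in oga-1 and at -0.33 and 0.20 between the mutants, while the black curves reach from -0.769 to 0.707, from -0.69 to 0.713 and from -0.445 to 0.562.

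Where a member had more than 1 probe set, the dimmer ones did not pass in the main unpaired fit either. Their own calls were taken from that fit alone. The 10 such members had 12 dimmer probe sets, of which 0 were called by limma in any comparison and 1, 1 and 0 had an unadjusted p under 0.05 (ogt-1 and oga-1, each against wild type, and between the mutants). In both mutants it was the second klp-11 probe set. In sign 8, 3 and 9 of the 12 matched the brightest probe set of their gene, with changes between -0.52 and 0.17. For oga-1 with wild type the 3 matches were all of klp-11. In every other such member the dimmer probe set had the opposite sign there, as for che-10 (0.15 and -0.34) and dyf-2 (0.04 and -0.24).

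Genes outside the list that share its biology were tested in the same fit. Of 39 further genes of ciliary structure and transport, 32 were measured, among them other IFT, transition zone and ciliary tubulin genes. Of these 0 were called in any of the 3 comparisons by limma, and 5, 2 and 0 had an unadjusted p under 0.05. For this and the lists below, the share of all genes with such a p was 17.6%, 14.9% and 5.36%. Of the 32, 11 were at or below the yeast-control level in all strains, as were 6 of the 14 glia markers and 8 of the 27 genes that signal in cilia. In the blocked fit of wild type and oga-1 alone cdkl-1, a kinase gene of cilia, passed (-0.40, adjusted p = 0.0489). The changes of the 32 ran from -0.33 to 0.52 in ogt-1 and from -0.40 to 0.28 in oga-1, with medians of -0.029 and 0.001. None of the 8 regulators of ciliated neuron identity and none of the 14 markers of the glia around these neurons passed (unadjusted p under 0.05 in limma for 2, 2 and 0 of the former and 3, 0 and 0 of the latter). Of the regulators nhr-44 passed in that blocked fit (-0.42, adjusted p = 0.0396). None of 16 general neuron markers passed (2, 1 and 1). Summed signals of lists were taken on unlogged values, so the brightest genes weigh most in them. The summed signal of those neuron markers ran from 15.58 to 15.60 (log2) over wild type arrays. It ran from 15.54 to 15.57 over ogt-1 arrays and from 15.49 to 15.66 over oga-1 arrays. The summed glia signal ran from 12.65 to 12.68 over wild type arrays, from 12.44 to 12.56 over ogt-1 arrays, all below wild type, and from 12.52 to 12.67 over oga-1 arrays.

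Among 27 genes that signal in cilia, 1 passed. The gene odr-10, which encodes the receptor for the odorant diacetyl in the cilia of the AWA neurons, read 11.90, 12.02 and 11.98 on the wild type arrays, 11.25, 11.32 and 11.27 in ogt-1, and 11.38, 11.23 and 11.46 in oga-1. All mutant arrays lay below all wild type arrays. It fell by 0.69 ± 0.10 (SE, n = 3, 1.61-fold) in ogt-1 (limma adjusted p = 0.00261) and by 0.61 ± 0.10 (1.52-fold) in oga-1 (limma adjusted p = 0.0126), with 0.08 between the mutants. The call in oga-1 was lost without oga-1 replicate 1 (adjusted p = 0.0516), and when wild type replicate 2 and oga-1 replicate 2 were both left out (adjusted p = 0.0707). The other 26 genes of that list did not pass in any comparison of the main unpaired fit. With the replicate block pkd-2, the polycystin-2 homologue, was also called in oga-1 (-0.56, limma adjusted p = 0.0353), and in the blocked fit of these strains alone so was the guanylyl cyclase gene gcy-18 (0.59, adjusted p = 0.0328). The summed signal of the list ran from 13.05 to 13.07 over wild type arrays, from 12.77 to 12.79 over ogt-1 arrays and from 12.70 to 12.90 over oga-1 arrays, so that both mutants lay below wild type. The bright odr-10 (mean 11.97 in wild type) weighs heavily in this sum, which was not taken without it. By gene, the median change of the list was -0.061 in ogt-1 and -0.068 in oga-1. Of the 27, 10 and 8 were above 0, as were 49.9% and 52.1% of all genes. Of the 27 genes 5, 5 and 0 had an unadjusted p under 0.05 in limma, as had 17.6%, 14.9% and 5.36% of all genes.

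Across the 9 arrays the mean value was 7.36, and the standard deviation over probe sets was narrowest in wild type replicate 2 (1.96) and oga-1 replicate 2 (1.91) and 2.00 to 2.05 elsewhere. In the arrays numbered 2 the ciliary genes sat below their strain means, for 28 of 41 on the wild type arrays, 29 in ogt-1 and 26 in oga-1. Median deviations were -0.053, -0.056 and -0.053, beside 0.012, -0.005 and 0.031 over all genes. Deviations as large the other way stood on ogt-1 replicate 1 (0.061, 13 of 41 below) and oga-1 replicate 3 (0.059, 12 below). Over all probe sets, deviations of the wild type and ogt-1 arrays numbered 2 correlated at -0.016. Markers of other tissues were counted to describe the larvae. Counts are for ogt-1 and oga-1, each against wild type, and between the mutants. An unadjusted limma p under 0.05 was found for 4, 4 and 0 of 8 body wall muscle markers. It was found for 4, 1 and 4 of 8 germline markers and for 1, 1 and 1 of 8 intestine markers. Of all genes 17.6%, 14.9% and 5.36% had such a p. Of 8 body wall muscle markers unc-54 rose by 0.76 in ogt-1 and 0.81 in oga-1 (limma adjusted p = 0.00939 and 0.0139), the latter call being lost without oga-1 replicate 1 (adjusted p = 0.0692) or on these strains alone (adjusted p = 0.0531). myo-3 rose by 0.90 in oga-1 (adjusted p = 0.049, up to 0.197 over the alternatives, 10 of which lost the call). The summed muscle signal ran from 14.26 to 14.61 over wild type arrays, from 14.78 to 14.87 over ogt-1 arrays and from 14.85 to 14.95 over oga-1 arrays, and its part in the results above was not tested. Of 8 germline markers glh-1 was called (-0.48 in ogt-1, limma adjusted p = 0.0434, lost in 11 of 18 alternatives, up to 0.179). The summed germline signal ran from 11.69 to 11.75 over wild type arrays and from 11.69 to 11.78 over ogt-1 arrays. Over oga-1 arrays it ran from 11.89 to 11.97, above all other arrays. Between the mutants 6 of 8 germline markers were above 0, with a median of 0.256. Of 8 intestine markers cpr-1 was called (1.14 between the mutants, limma adjusted p = 0.0429, lost in 8 of 18, up to 0.238). In that comparison 2 of the 8 intestine markers were above 0, with a median of -0.014. None of 7 hypodermis markers and none of 9 adult oocyte and sperm markers passed in the main unpaired fit (unadjusted p under 0.05 in limma for 0, 1 and 1 of the former and 2, 2 and 0 of the latter). With the replicate block cbd-1 of the latter passed in oga-1 (-0.57, limma adjusted p = 0.0416), and in the blocked fit of wild type and oga-1 alone pept-1 of the intestine markers (-0.43, adjusted p = 0.0348) and dpy-5 of the hypodermis markers (-0.42, adjusted p = 0.0377) did. As a check of the labels, the dimmer of the 2 ogt-1 probe sets fell by 0.61 in the ogt-1 strain (limma adjusted p = 0.0124), and the brighter differed by -0.22 (adjusted p = 0.581). In the oga-1 strain the ogt-1 probe sets differed by -0.40 and -0.42 (limma adjusted p = 0.109 and 0.24). Between the mutants (oga-1 minus ogt-1) the dimmer differed by 0.21 and the brighter by -0.20. Neither passed there, so these probe sets do not settle which mutant label is which. The 3 oga-1 probe sets differed by -0.05 to 0.03 in the oga-1 strain. Their place relative to the deletion was not stated in the labels, so they do not check that strain's label.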

How the data were processed

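Biotinylated cRNA from 4 ug of total RNA was read on Affymetrix C. elegans arrays, per the labels' protocols. The authors deposited log2 values per probe set, with equal means on all 9 arrays. MAS5, RMA and Partek appear in the submitters' processing notes, and which step each made is not stated there. Precision rests on the number of arrays. After 77 control probe sets were removed, 22548 were fitted unfiltered in limma 3.58.1 (R 4.3.3), with strain as the only factor (6 residual and 5.65 prior degrees of freedom). Of these, 20766 had 1 platform symbol, 887 several and 895 none. The 41 members and all other lists were chosen with earlier results of these data known. Members were named by this rule: daf-19, any called, the 3 largest changes per comparison, the smallest p per role, and those nearest the threshold. Of other lists, up to 4 called genes were named per comparison. Alternatives were median centring, quantile normalisation, filters that drop the dimmest 25% or 50% of probe sets, a replicate block, robust fitting with a variance trend, 2 strains alone, averaging of all probe sets per gene, and each array left out. Leaving out wild type replicate 2 and oga-1 replicate 2 together was added after seeing the data, as was the block in a fit of wild type and oga-1 alone. The block rests on the data, not the labels: deviations from strain means correlated from 0.357 to 0.481 in the 3 same-numbered pairs of wild type and oga-1 (other numbers -0.428 to 0.052). They did so from -0.096 to -0.002 in those of wild type and ogt-1, and from 0.072 to 0.113 in those of the mutants. The replicate block over all 9 arrays nevertheless matched ogt-1 arrays by number too. Only the blocked fit of wild type and oga-1 alone left ogt-1 out. Genes named from blocked fits alone were chosen after their values were seen. Where replicates were not separate cultures, p-values measure only the spread between these samples. Sequences were not used here.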

Additional observations from a re-analysis of the deposited data

How the results depend on the processing

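The count of called ciliary genes stayed at 0 in all alternatives but these. Quantile normalisation called 1 (osm-3) in ogt-1 with wild type and 1 (klp-11) in oga-1 with wild type. For oga-1 with wild type 1 gene, klp-11, was also called with the replicate block (adjusted p = 0.044), with that block on these strains alone (1, adjusted p = 0.0131), with a variance trend and robust fitting (1) and without ogt-1 replicate 3, so that with each array left out in turn the count ran from 0 to 1. Between the mutants it was 0 throughout. The members' median change moved by less than the spread between arrays (0.081) in every alternative. It ran from -0.019 to 0.088 in ogt-1, from -0.024 to 0.030 in oga-1 and from -0.075 to 0.007 between the mutants, so its sign is not settled.

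Counts over all probe sets moved more. With each array left out in turn they ran from 332 (without ogt-1 replicate 2) to 1186 (without oga-1 replicate 2) in ogt-1 with wild type, from 124 (without oga-1 replicate 1) to 624 (without oga-1 replicate 3) in oga-1 with wild type and from 76 (without ogt-1 replicate 2) to 197 (without oga-1 replicate 3) between the mutants. For oga-1 with wild type the count was 187 on these strains alone, 138 without both replicate 2 arrays and 749 with the replicate block, which gave 176 between the mutants. It was 1316 with the block on these strains alone. Of the genes named by the rule klp-11 alone changed its call under either block. The cause of these shifts was not tested. Signal near background limits bbs-2, bbs-9, che-13, dyf-13, mks-1, che-2 and tub-1. A count of promoters with an X-box was planned and not run, because no sequences were used here.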
